A study of Homo sapiens with 101 samples.

Results

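Etoposide (label ETP) was given to HT1080 cells, and 6 treated samples were set against 6 samples of the matching DMSO control (label ETP_DMSO). The samples were chosen by their titles, and they make up 12 of the 100 replicates of the series (13 arrays), since 1 control sample was arrayed a second time and both arrays were averaged. HT1080 (ATCC CCL121) is an established human fibrosarcoma line with an intact p53 gene. All samples are of this 1 line, grown in EMEM with serum, and the labels name no genetic change. ETP was added at 0.3 µM from a stock in DMSO the day after seeding, the control received DMSO alone, and the time between dosing and harvest is not given in the labels. By the series text each compound was used at 1 dose that raised total p53 about 1.5-fold, so the comparison shows what a mild p53 response to a topoisomerase II poison looked like in these cells. Nothing in the labels says that the 6 samples of a group came from separate cultures, so the p-values speak only of how these samples spread, and that spread may be technical.

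Topoisomerase II cuts both strands of DNA, passes another duplex through the gap and reseals it. Etoposide holds the enzyme on the cut DNA, and the broken ends left when replication or transcription meets it activate the ATM kinase, which stabilises p53. p53 then switches on genes of cell cycle arrest, DNA repair, death and metabolism together with its own inhibitors, while the arrest protein p21 holds back the E2F factors that drive the genes of DNA replication. Whether either arm caused the changes given below was not tested.

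The arrays measured RNA with 54715 probe sets, and the deposited values are on a log2 scale. The median over the 40914 probe sets with 1 gene lay between 3.92 and 3.95 in the 12 samples. Genes entered the test when any of the 17 groups of the series averaged 4 or more, and a group mean under 4 is read here as not well above background. The label of the cells was checked against markers. Of 15 mesenchymal markers 10 passed the filter, among them VIM with group means of 13.16 in ETP and 13.25 in ETP_DMSO, while COL3A1, LUM and DCN were under 3 in both groups. Keratins KRT8 and KRT18 were measured well above background, and the other epithelial markers, the endothelial markers and 12 of 13 myeloid markers were under the filter. Of 5 listed lymphoid markers 1 passed it, CD3D, with group means of 4.21 in ETP and 4.25 in ETP_DMSO.

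One treated library went against its label. The difference of the library labelled ETP replicate 2 from the mean of ETP_DMSO correlated across the 11496 genes at r = 0.92 with the mean change under quercetin (label QUE) and at r = 0.19 with the mean change of the other ETP libraries. The other 5 ETP libraries had r from 0.57 to 0.89 with the ETP change, each library left out of the mean it was set against, and from 0.090 to 0.16 with the QUE change. The library labelled QUE replicate 2 showed the reverse, with r = 0.66 with the ETP change and 0.087 with the QUE change, where the other QUE libraries had 0.79 to 0.94 with QUE. Genes are not independent replicates, and these correlations describe the libraries. In the library labelled ETP replicate 2, 1366 genes lay more than 1 log2 unit from the mean of the other ETP libraries, against 9 to 207 genes for each of the others. What these libraries contain was not tested. The labels were kept for the main values. The total counts and many list and gene values are also given without the library labelled ETP replicate 2. Where only 1 value is given, it is that of all 6 ETP libraries, and that library may have moved it.

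**Figure D1:**
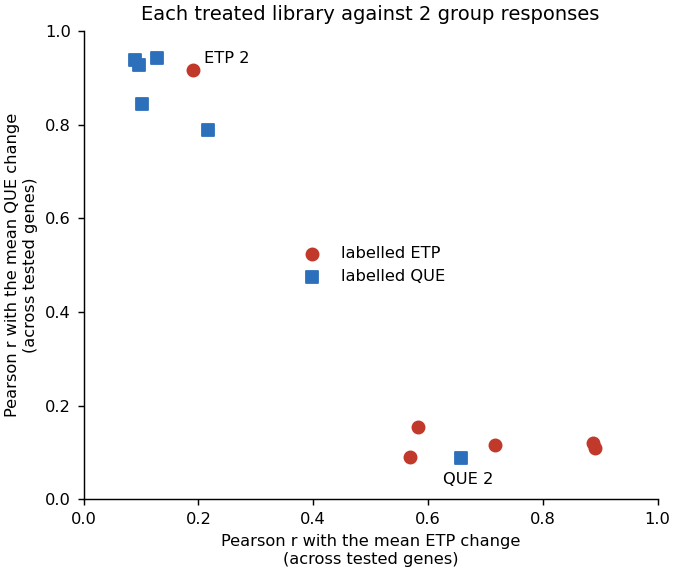
Pearson correlation, across 11496 tested genes, of each treated library's difference from its own control mean with the mean change under ETP (horizontal axis) and under QUE (vertical axis); both means leave out the number-2 libraries and the library itself. The point labelled ETP 2 lies at 0.19 and 0.92, among the QUE libraries, and the point labelled QUE 2 lies at 0.66 and 0.087, among the ETP libraries.

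A change was called where the adjusted p of limma was under 0.05 and the fold at least 1.5. Under this rule 308 of 11496 genes (2.68%) were called, 237 higher (2.06%) and 71 lower (0.618%) with ETP. At least a 2-fold change was reached by 83 of the genes called higher and 15 of those called lower. Without the library labelled ETP replicate 2 the count was 455 (3.96%), 306 higher (2.66%) and 149 lower (1.3%). The count of genes called lower also moved to 42, 46 and 43 without ETP replicate 5, ETP replicate 6 and ETP_DMSO replicate 6. Of the 308 genes 275 were called both ways, 33 were called only with that library and 180 only without it, 94 of them higher and 86 lower. The 33 genes that were lost all kept an adjusted p under 0.05 and fell under the fold minimum. In 328 genes (2.85%) every ETP sample lay above every control sample, and in 134 (1.17%) every one lay below, together 4.02% of genes without overlap. The median change of all tested genes was 0.0032 on the log2 scale, or 0.0051 without the library. Changes are given on the log2 scale as ETP minus ETP_DMSO ± SE (n = 6 and 6, or 5 and 6 without the library labelled ETP replicate 2). Levels are given as the lowest, median and highest log2 signal of a group.

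**Figure D2:**
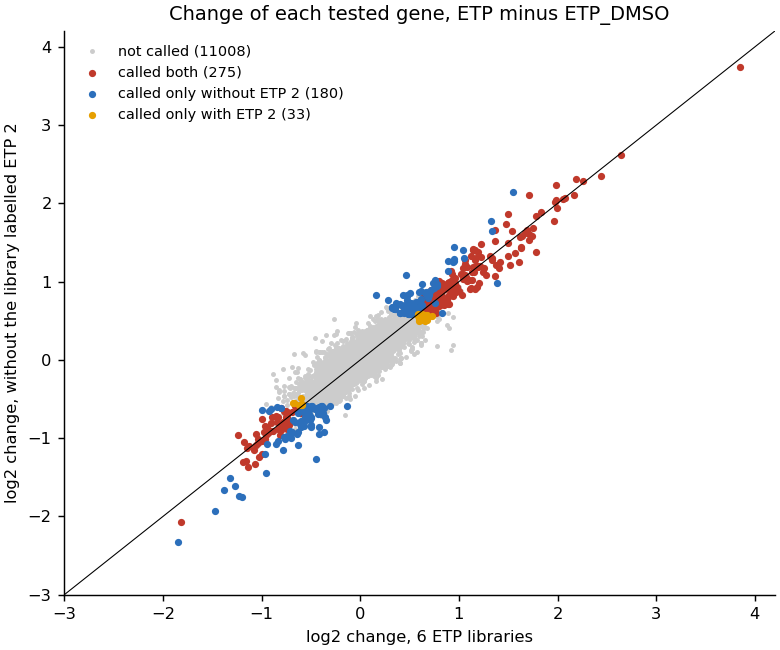
Change of each of 11496 tested genes (ETP minus ETP_DMSO, log2) with all 6 ETP libraries (horizontal axis) and without the library labelled ETP replicate 2 (vertical axis), coloured by call; the line marks equal values. The 275 genes called both ways (red) follow the line, most of the 180 called only without the library (blue) lie farther from 0 on the vertical axis than on the horizontal, and the 33 called only with it (orange) lie near the fold minimum.

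Of 57 tested genes of the p53 response 32 rose, 25 were not called and none was called lower. They came from 5 lists of p53 targets (feedback, arrest, death, repair, metabolism), with a median change of 0.71, or 0.76 without the library labelled ETP replicate 2. Of all genes tested 2.06% were called higher, with a median of 0.0032. In 32 of the 57 genes every ETP sample lay above every control sample. These lists were drawn up with earlier results of these data known and are not independent evidence of the direction.

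The p53 feedback genes, which restrain or tune p53, had 9 tested members, 5 called higher, and a median change of 0.82. MDM2, the ubiquitin ligase that destroys p53, had log2 signals of 10.72, 10.98 and 11.11 in ETP and 9.59, 9.78 and 9.98 in ETP_DMSO. The groups did not overlap, and MDM2 rose by 1.18 ± 0.092, or 2.27-fold (adjusted p = 1.19e-05); its 9 probe sets ranged from 0.19 to 1.69. PPM1D, the phosphatase WIP1 that switches the damage response off, was at 8.77, 9.42 and 9.72 in ETP and 7.59, 7.83 and 7.87 in the control. It rose by 1.53 ± 0.14 (2.90-fold, adjusted p = 5.39e-05), and its other probe set gave 1.59. The library labelled ETP replicate 2 was the lowest of the 6, at 8.77. TP53INP1, a p53 cofactor and autophagy protein, had the largest change of the list, with signals of 9.66, 9.92 and 10.26 against 7.63, 7.87 and 8.25 and a rise of 2.05 ± 0.12 (4.14-fold). Its 3 probe sets disagreed, from -0.17 to 2.05. PHLDA3, an inhibitor of AKT at the membrane, rose by 1.16 ± 0.10, and TRIAP1, a small mitochondrial survival protein, by 0.82 ± 0.071. CCNG1, the cyclin G1 that recruits a phosphatase to MDM2, had 0.51 ± 0.12 with an adjusted p of 0.024 and stayed under the fold minimum, although the groups did not overlap. MDM4, the MDM2 partner, had -0.14 ± 0.21, and the ubiquitin ligases COP1 and RCHY1 had 0.11 ± 0.084 and -0.013 ± 0.096, with overlapping groups.

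Among 10 tested genes of arrest, 5 were called higher and the median change was 0.59, or 4 and 0.50 without the library labelled ETP replicate 2. CDKN1A, which encodes the CDK inhibitor p21, had log2 signals of 10.13, 10.22 and 10.28 in ETP and 8.65, 8.90 and 9.13 in ETP_DMSO. The treated samples were close to one another and far above the control, and the rise was 1.32 ± 0.086 (2.49-fold, adjusted p = 4.02e-06). The value without the library was 1.32 ± 0.088, and a second, dimmer probe set of CDKN1A gave 0.03. PLK3, a stress-activated polo-like kinase, rose by 1.33 ± 0.17 from a control level of 5.23, 5.85 and 6.19. Its 3 probe sets ranged from 0.068 to 1.33. SERTAD1, a regulator of CDK4 and E2F, rose by 1.06 ± 0.14, and IER5, an early response gene of radiation, by 0.86 ± 0.13. GADD45A, the damage-inducible arrest gene, was at 11.02, 11.37 and 12.07 in ETP and 10.55, 10.73 and 11.05 in the control. Its rise of 0.67 ± 0.17 (adjusted p = 0.0342) included the library labelled ETP replicate 2, the highest at 12.07, and without it the change was 0.54 ± 0.13, under the fold minimum. PLK2, another polo-like kinase, had 0.27 ± 0.18 with that library and 0.45 ± 0.093 without it, and was called in neither. ZMAT3, SFN, CCNG2 and the repressor E2F7 had changes from 0.28 to 0.51 and were not called.

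The death list had 12 tested genes, 5 called higher, and a median of 0.58. FAS, the death receptor, was at 8.81, 9.33 and 9.50 in ETP and 7.40, 7.66 and 7.74 in ETP_DMSO. The groups did not overlap, FAS rose by 1.62 ± 0.12 (3.08-fold, adjusted p = 9.56e-06), and its 5 probe sets gave 1.16 to 1.67. ACTA2, smooth muscle actin, which overlaps FAS on chromosome 10 in the RefSeq spans and was picked out after its value was seen, rose by a like 1.64 ± 0.17, and whether reads of one gene reach the probes of the other was not tested. TP53I3, a quinone oxidoreductase, had 10.26, 10.77 and 11.80 in ETP and 8.67, 8.88 and 9.04 in the control. It rose by 1.97 ± 0.20, or by 1.77 ± 0.12 without the library labelled ETP replicate 2, which was the highest. CYFIP2, a subunit of the WAVE actin complex, rose by 1.13 ± 0.11, the apoptosome scaffold APAF1 by 0.71 ± 0.17 and the membrane protein NINJ1 by 0.65 ± 0.14. The 3 probe sets of APAF1 ranged from 0.079 to 0.71. BBC3, which encodes the killer protein PUMA, was low, with 4.73, 5.08 and 5.23 in ETP and 4.28, 4.43 and 4.73 in ETP_DMSO. Its change of 0.57 ± 0.11 fell just short of the fold minimum, and without the library it was 0.63 ± 0.094 (adjusted p = 0.00116) and was called higher. BAX, the pore former of mitochondrial apoptosis, was at 9.17, 10.22 and 10.41 in ETP and 9.53, 9.84 and 9.92 in the control. The groups overlapped because the library labelled ETP replicate 2 had 9.17, and the change was 0.29 ± 0.19 with it and 0.47 ± 0.11 without it, called in neither. PMAIP1, which encodes NOXA, had 0.37 ± 0.23 and the death receptor TNFRSF10B 0.12 ± 0.069, neither past the test.

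Of 7 tested repair genes 5 were called higher, with a median of 0.73. DDB2 and XPC find bulky lesions for nucleotide excision repair. DDB2 had log2 signals of 9.33, 9.90 and 10.04 in ETP and 8.42, 8.51 and 8.85 in ETP_DMSO and rose by 1.22 ± 0.12 (2.33-fold, adjusted p = 9.41e-05). XPC had 9.05, 9.36 and 9.60 against 7.90, 8.13 and 8.48 and rose by 1.20 ± 0.11 (2.29-fold). In both genes the groups did not overlap. POLH, the polymerase that copies past damaged bases, rose by 0.86 ± 0.088, and RRM2B, the p53-controlled subunit of ribonucleotide reductase, by 0.73 ± 0.096. The 6 probe sets of POLH ranged from 0.19 to 1.47. PCNA, the sliding clamp of replication and repair, rose by 0.69 ± 0.15, in the opposite direction to the helicase genes of replication. REV3L and FANCC, with 0.33 ± 0.093 and -0.093 ± 0.19, were not called.

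Metabolism and stress targets of p53 gave 12 genes called higher of 19 tested, and a median of 0.89. ACER2, an alkaline ceramidase, had 5.42, 6.18 and 6.40 in ETP and 3.77, 3.98 and 4.34 in the control. No samples overlapped, and ACER2 rose by 2.08 ± 0.16 (adjusted p = 9.56e-06). SPATA18, which marks damaged mitochondria for removal, rose by 1.63 ± 0.21, and by 1.43 ± 0.12 without the library labelled ETP replicate 2, its highest at 6.92. A second probe set of SPATA18 gave 0.39 with all samples. FUCA1, a lysosomal fucosidase, rose by 1.36 ± 0.26 and KITLG, the ligand of the receptor KIT, by 1.20 ± 0.24. KITLG was at 0.98 ± 0.14 without that library, in which it was 9.99 where the other ETP libraries had at most 8.95. The 4 probe sets of KITLG ranged from -0.11 to 1.20. SESN1, a sestrin that restrains mTORC1, rose by 1.16 ± 0.14, TIGAR, which turns glucose toward the pentose phosphate pathway, by 0.89 ± 0.11 and DRAM1, a lysosomal membrane protein of autophagy, by 0.88 ± 0.11. GDF15, a secreted stress cytokine, was bright in the control, with 10.97, 11.62 and 12.03, and had 12.24, 12.50 and 13.06 in ETP. It rose by 0.97 ± 0.18 (1.96-fold, adjusted p = 0.00841). INPP5D rose by 1.07 ± 0.18, CMBL by 0.95 ± 0.097, SAT1 by 0.94 ± 0.25 and SUSD6 by 0.89 ± 0.11. SESN2 had 0.62 ± 0.22 with overlapping groups, and SCO2, STEAP3 and TNFAIP8 had changes from -0.15 to 0.13.

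**Figure D3:**
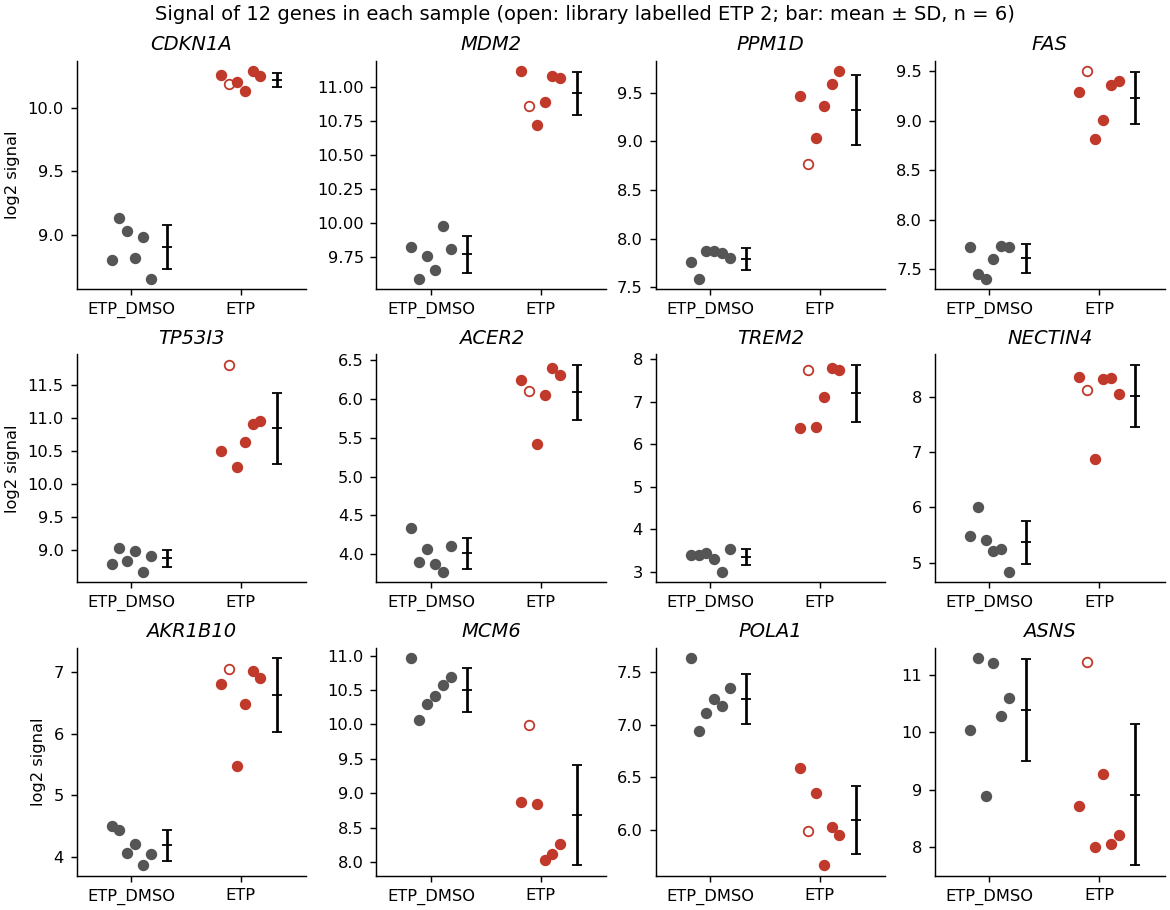
Log2 signal of 12 genes in each of 6 ETP_DMSO samples (grey) and 6 ETP samples (red), with the mean ± SD (n = 6) as a bar; the open circle is the library labelled ETP replicate 2, and each panel has its own axis. The groups are apart in CDKN1A, MDM2, PPM1D, FAS, TP53I3, ACER2, TREM2, NECTIN4, AKR1B10, MCM6 and POLA1. In ASNS the open circle lies at 11.23 with the controls, while the other 5 lie below it and overlap the lowest control.

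Full p53 elements were looked for next to the starts of these genes, because a p53 response is read through such sites. A full element was taken as 2 copies of the p53 half-site consensus at most 13 bases apart, on either strand, in the RefSeq window (GRCh38.p14) from 250 bases before to 50 after a start. It was found in 10 of 35116 windows (0.0285%), in 5 of 9494 tested genes with a window (0.0527%) and in 3 of 192 called higher, which were DDB2, PURPL and MCC. The stretches of the last 2 are shown because the element lies before the start, with the element and its spacer in capitals.
PURPL (chr5:27472145-27472204, plus strand, element beginning 127 bases before the start): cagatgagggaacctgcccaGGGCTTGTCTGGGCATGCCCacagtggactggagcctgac
MCC (chr5:113488475-113488541, minus strand, element beginning 68 bases before the start): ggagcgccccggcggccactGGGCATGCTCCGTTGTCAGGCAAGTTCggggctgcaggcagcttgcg
Both genes were picked for their sequence after their values were seen. PURPL, a long noncoding RNA that acts on p53, had 6.24, 7.39 and 7.55 in ETP and 5.29, 5.43 and 6.21 in ETP_DMSO and rose by 1.67 ± 0.22, with no overlap. MCC, a suppressor of WNT signalling, rose by 0.77 ± 0.16, with overlapping groups. No match in the other windows says only that these letters are not in this stretch.

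The largest rises lay mostly outside these lists. TREM2, a receptor of myeloid cells that signals through the adaptor TYROBP, had log2 signals of 6.39, 7.43 and 7.79 in ETP and 3.001, 3.39 and 3.55 in ETP_DMSO. No sample came near the other group, and the change was 3.85 ± 0.25 (adjusted p = 4.02e-06); with the control not well above background, this is at least 9.18-fold. TYROBP itself was under the filter, at 2.91 in ETP and 2.94 in the control, and the mean of the 13 myeloid markers was 3.08 to 3.35 in the ETP samples and 3.07 to 3.24 in the controls. LAPTM5, a lysosomal protein best known from blood cells, had 5.35, 5.50 and 6.23 against 3.56, 3.88 and 4.11, at least 3.13-fold higher. NECTIN4, an adhesion molecule of epithelia, was at 6.88, 8.22 and 8.36 in ETP and 4.83, 5.34 and 6.01 in the control. The lowest ETP sample, replicate 3, was still above the highest control, and NECTIN4 rose by 2.64 ± 0.25 (6.23-fold). None of the other 6 tested genes of the nectin and adhesion list was called.

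AKR1B10, an aldo-keto reductase and a known target of the NRF2 factor, had 5.49, 6.86 and 7.06 in ETP and 3.86, 4.14 and 4.51 in ETP_DMSO. It rose by 2.44 ± 0.24 (5.43-fold, adjusted p = 6.82e-05). It was the only call among 23 tested NRF2 genes, whose median was 0.025, and 2.68% of all tested genes were called. SULF2, a sulfatase that trims heparan sulfate outside the cell, was at 4.79, 5.70 and 5.96 against 3.18, 3.26 and 3.80, at least 2.93-fold higher, and was the only call among 23 tested genes of TGF-beta and matrix. MEGF6, a protein with EGF-like repeats, had 4.77, 5.95 and 6.62 against 3.27, 3.61 and 4.16 and was at least 3.55-fold higher. The same wording holds for CCDC148, at least 2.66-fold higher, and for the cadherin CDH10, at least 3.37-fold higher. GREB1, known as an oestrogen-responsive gene, rose by 1.995 ± 0.23, SUGCT, an enzyme of glutarate metabolism, by 1.98 ± 0.15, ASTN2 by 1.83 ± 0.13 and LRATD1 by 1.98 ± 0.31. In these 15 genes every ETP sample lay above every control, which was part of the rule by which they were named. All 15 were also called higher without the library labelled ETP replicate 2, in which LRATD1 was lowest, at 6.34. In CCDC148, MEGF6, GREB1, LRATD1 and ASTN2 a dimmer probe set of the same gene changed by less than 0.30. The second probe sets of LAPTM5 and SULF2 gave 0.54 and 0.78.

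**Figure D4:**
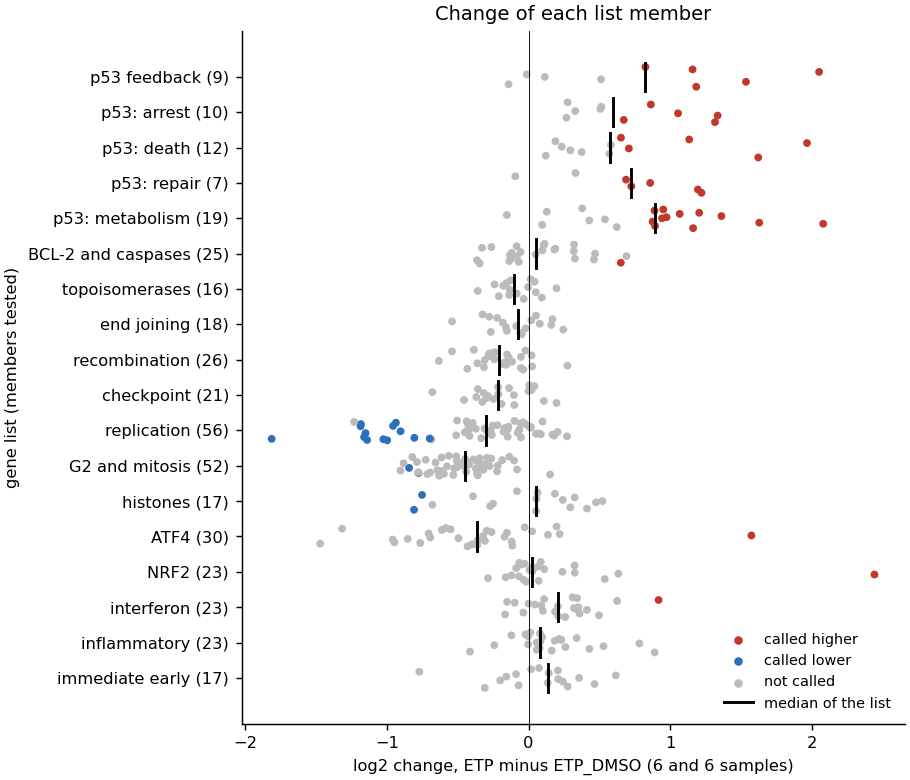
Change of each tested member of 18 gene lists (ETP minus ETP_DMSO, log2, 6 and 6 samples), 1 point a gene, coloured by call, with the list's median as a black bar and the number tested in brackets. The 5 p53 lists have medians from 0.58 to 0.89, replication and G2 and mitosis have -0.30 and -0.45, and the other lists lie between -0.36 and 0.21.

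Of 56 tested genes of DNA replication 13 fell and none was called higher (0.618% of all genes were called lower), and the median change was -0.30. Without the library labelled ETP replicate 2 these were 15 and -0.31. The count depended on single libraries: it was 8, 7, 5 and 6 without ETP replicates 3, 4, 5 and 6, and 6, 7, 8, 6 and 5 without ETP_DMSO replicates 1, 3, 4, 5 and 6. Array weights gave 18, and the replicate block without the number-2 libraries gave 23. The called genes were MCM2, MCM3, MCM5, MCM6, MCM7, CDC45 and GINS2 of the replicative helicase, POLA1 and POLE2 of the polymerases, CDCA7, HELLS and UHRF1 of chromatin and DNA methylation upkeep, and the repressor E2F8. The mean signal of the list was 7.52 to 8.32 in ETP and 7.95 to 8.83 in ETP_DMSO, so the sample means overlapped. Other members were not called: CDC6, CDT1, the ORC subunits, the RFC subunits, RRM2 and TYMS were among the 43.

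MCM6, a helicase subunit, had the lowest change of the 11496 genes after FAM111B. Its log2 signals were 8.04, 8.56 and 9.99 in ETP and 10.06, 10.50 and 10.96 in ETP_DMSO. The highest ETP sample was the library labelled ETP replicate 2, at 9.99, just under the lowest control. MCM6 fell by 1.81 ± 0.29, or 3.51-fold (adjusted p = 0.00306), and without that library by 2.07 ± 0.19, or 4.21-fold (adjusted p = 3.23e-05); its second probe set gave -1.03. POLA1, the catalytic subunit of the primase polymerase, was at 5.66, 6.01 and 6.59 in ETP and 6.94, 7.22 and 7.64 in the control, and its change of -1.15 ± 0.15 was -1.13 ± 0.16 without the library. CDCA7 had a change of -1.18 ± 0.22 with groups that did not overlap, and its second probe set gave -0.44. For MCM3 the change was -1.14 ± 0.28, for MCM5 -1.02 ± 0.23 and for MCM2 -0.997 ± 0.25, and in these 3 genes the library labelled ETP replicate 2 was the highest of the ETP samples and reached into the control range. GINS2 had -1.16 ± 0.26, HELLS -1.18 ± 0.29 and UHRF1 -0.96 ± 0.25, with overlapping groups. The probe sets of GINS2 ranged from -1.16 to -0.099 and those of HELLS from -1.37 to 0.20. MCM7 had -0.70 ± 0.15, with no overlap. CCNE2, the cyclin E2 that opens S phase, was called without the library, at -1.73 ± 0.36 (adjusted p = 0.00875), and not with it, at -1.23 ± 0.55.

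The letters of E2F sites were looked for in the same promoter windows, since E2F factors drive this gene group. TTTCCCGC or TTTGGCGC, on either strand, was present in 2.27% of 35116 windows and in 4.72% of 9494 tested genes with a window. It was in 9 of the 11 replication genes called lower that had a window (81.8%), in 11 of 37 that were not called (29.7%), in 4 of 48 other genes called lower (8.33%) and in 6.77% of 192 genes called higher. The letters CCAATC of the CCAAT box were in 8 of the same 11 genes (72.7%) and in 24.0% of tested genes. Stretches before the start are shown for 7 of the genes with E2F letters, in the direction of the gene, with the E2F letters in capitals.
MCM6 (chr2:135876508-135876613, minus strand, matches beginning 152 and 90 bases before the start): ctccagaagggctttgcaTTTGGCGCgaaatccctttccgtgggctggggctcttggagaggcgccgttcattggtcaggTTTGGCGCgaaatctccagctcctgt
MCM3 (chr6:52284891-52284934, minus strand, 174 bases before the start): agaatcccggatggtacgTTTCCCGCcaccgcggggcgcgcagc
MCM7 (chr7:100101559-100101602, minus strand, 187 bases before the start): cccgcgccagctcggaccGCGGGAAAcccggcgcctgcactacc
GINS2 (chr16:85688960-85689003, minus strand, 31 bases before the start): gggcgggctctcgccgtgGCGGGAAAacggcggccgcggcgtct
POLA1 (chrX:24693763-24693806, plus strand, 137 bases before the start): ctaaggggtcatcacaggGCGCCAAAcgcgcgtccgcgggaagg
CDCA7 (chr2:173354789-173354832, plus strand, 65 bases before the start): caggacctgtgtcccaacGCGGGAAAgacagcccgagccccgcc
HELLS (chr10:94545694-94545787, plus strand, matches beginning 76 and 8 bases before the start): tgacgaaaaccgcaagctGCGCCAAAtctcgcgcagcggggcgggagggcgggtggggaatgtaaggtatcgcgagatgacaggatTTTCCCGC
MCM6 and HELLS hold the letters 2 times and the other 5 once, and capitals that read GCGGGAAA or GCGCCAAA are the same letters on the opposite strand. The 7 stretches come from the RefSeq promoter table of GRCh38.p14, and a match describes the letters and does not show that a factor binds.

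The other large falls lay outside the replication list. MAP2K6, a kinase that activates p38, had 4.11, 5.87 and 6.13 in ETP and 6.34, 6.70 and 7.08 in the control, and its change of -1.23 ± 0.29 was -0.96 ± 0.18 without the library labelled ETP replicate 2, the lowest at 4.11. CILK1, a kinase of cilia, had -1.07 ± 0.16, SYNE2, which ties the nucleus to the cytoskeleton, -1.03 ± 0.13, and CALML4, a calmodulin-like protein, -1.05 ± 0.11. The noncoding genes LOXL1-AS1, SNHG3, LOC105376944 and PHF2P1 had changes of -1.03 ± 0.15, -0.97 ± 0.16, -1.05 ± 0.21 and -0.95 ± 0.14; the mean of LOC105376944 in ETP was under 4. KIAA1549L had -0.90 ± 0.16, ARAP2 -0.89 ± 0.14 and PCIF1, which methylates the mRNA cap, -0.83 ± 0.13. In these genes every ETP sample lay under every control sample, again by the rule that named them. All of them were also called lower without the library labelled ETP replicate 2. In MAP2K6, CILK1, CALML4, SYNE2, ARAP2, PCIF1 and LOC105376944 a dimmer probe set of the same gene changed by only -0.071 to 0.11. One of KIAA1549L changed by -0.25. LOXL1-AS1 is an antisense RNA and was read by 1 probe set, and the strand of the probes was not checked.

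Genes of G2 and mitosis gave 2 calls of 52 tested, both lower, where 0.618% of all tested genes were called lower. Their median change was -0.45, and -0.16 without the library labelled ETP replicate 2. The mean signal of the list was 7.45 in that library, 8.73 to 9.50 in the other 5 ETP libraries and 8.93 to 9.65 in the controls. The calls were KIF15, a spindle motor, with -0.84 ± 0.15, and AURKB, the kinase of chromosome segregation, with -0.78 ± 0.20, and both were also called without the library. The count was 1 when ETP replicate 3, 4, 5 or 6 or ETP_DMSO replicate 1, 3, 4, 5 or 6 was left out, each of which ended the call of AURKB, and 4 without ETP replicate 1. It was also 1 with no filter and with the probe sets of each gene averaged. In 1 fit of all groups and with array weights it was 5. CCNB1, the mitotic cyclin, had 7.84, 10.99 and 11.27 in ETP and 10.76, 11.07 and 11.36 in the control. The lowest value was that of the library labelled ETP replicate 2. Its change was -0.63 ± 0.47 (adjusted p = 0.483) with all samples, and it was called neither with that library nor without it. MKI67, the proliferation marker, was at 7.63, 8.24 and 8.92 against 8.60, 8.90 and 9.42, with a change of -0.79 ± 0.22 (adjusted p = 0.059), and LMNB1, the lamin that is lost in senescent cells, had -0.84 ± 0.24 (adjusted p = 0.0679). Neither passed. Of 9 members with an unadjusted p under 0.05, 2 passed after adjustment.

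The histone list gave H4C3, a replication-dependent histone H4 gene, and the linker histone gene H1-10 as lower, of 17 tested. Among all tested genes 0.618% were called lower. H4C3 was very bright and tight, with 11.56, 11.66 and 11.77 in ETP and 12.27, 12.46 and 12.49 in ETP_DMSO, and changed by -0.75 ± 0.069 (adjusted p = 5.11e-05). H1-10 changed by -0.81 ± 0.17. Its second probe set gave -0.20, and the list had 1 gene called lower when the probe sets of each gene were averaged. Without the library labelled ETP replicate 2, 3 genes of the H2B family rose: H2BC4 by 0.82 ± 0.17, H2BC5 by 0.72 ± 0.19 and H2BC21 by 0.67 ± 0.18. H2BC21 was at 5.54 in that library and at 7.34, 7.65 and 7.95 in the other ETP libraries, against 6.35, 6.96 and 7.39 in the control. The copies of a histone family are near-identical, so probe sets may share signal between them.

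The count of ATF4 genes called lower depended on the libraries and on the fit. ATF4 switches on amino acid synthesis and uptake genes when the cell lacks amino acids or is stressed. Of 30 tested genes 1 was called higher and none lower with all samples, and the median was -0.36. Without the library labelled ETP replicate 2, 13 were called lower, 1 higher, and the median was -0.49. Among all tested genes 1.3% were called lower without that library. With that library kept, 14 were called lower with array weights, 8 in 1 fit of all groups, 5 with the replicate number as a block, 3 with the repeat arrays kept apart and 3 without ETP_DMSO replicate 3. The mean signal of the list was 9.13 in that library, 8.03 to 8.33 in the other 5 ETP libraries and 8.20 to 9.04 in the controls, which also spread widely. ASNS, asparagine synthetase, had 8.01, 8.22 and 9.27 in those 5 libraries, 11.23 in the library labelled ETP replicate 2 and 8.90, 10.45 and 11.29 in ETP_DMSO. Its change was -1.47 ± 0.54 (adjusted p = 0.143) with all samples and -1.93 ± 0.38 (adjusted p = 0.00684) without that library. The lowest control overlapped the ETP samples in both cases. A second probe set of ASNS gave -0.030 with all samples. SLC7A11, the cystine transporter, had 6.98, 7.23 and 8.21 in the 5 libraries and 8.65, 8.84 and 9.12 in the control, apart from one another, and 10.33 in the sixth. It fell by 1.45 ± 0.19 without that library (adjusted p = 5.54e-04), and had -0.96 ± 0.46 with it.

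The other 11 genes called lower without that library were the serine synthesis enzymes PHGDH (-1.07 ± 0.26) and PSAT1 (-1.01 ± 0.22), the folate enzyme ALDH1L2 (-1.51 ± 0.38), the transporters SLC7A5 (-1.07 ± 0.19), SLC7A1 (-0.92 ± 0.13) and SLC3A2 (-0.86 ± 0.16), the tRNA synthetases AARS1 (-0.79 ± 0.15) and GARS1 (-0.70 ± 0.16), and the regulators CEBPG (-0.9998 ± 0.16), TRIB3 (-0.73 ± 0.17) and ATF4 itself (-0.67 ± 0.14). The one member that rose was ATF3, a stress factor that is also a p53 target. It had 6.42, 7.07 and 8.11 in ETP and 4.80, 5.49 and 6.25 in the control and rose by 1.57 ± 0.28, or 1.37 ± 0.23 without the library. The 3 probe sets of ATF3 ranged from 0.068 to 1.57. SLC1A4, a neutral amino acid transporter that was named because it was gained without the library, had -1.75 ± 0.31. Its probe sets ranged from -1.20 to 0.069 with all samples.

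The letters TGATGNAAN of the composite element that ATF4 binds with C/EBP proteins, on either strand, were in the windows of 6 of 11 ATF4-list genes called lower without the library (54.5%), of 2 of 13 not called and of 2.88% of tested genes. The 6 were ASNS, SLC3A2, SLC7A1, CEBPG, AARS1 and GARS1, and 2 are shown, with the letters in capitals, as the one with the largest change and one on the opposite strand.
ASNS (chr7:97872448-97872496, minus strand, 68 bases before the start): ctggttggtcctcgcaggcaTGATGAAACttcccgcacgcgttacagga
AARS1 (chr16:70289666-70289714, minus strand, 188 bases before the start): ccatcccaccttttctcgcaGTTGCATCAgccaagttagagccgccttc

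The target of the drug and the machinery that removes it were not called. Of 16 tested topoisomerase genes and repair factors of protein-bound ends, none passed with limma, and 1 had an unadjusted p under 0.05. Called genes made up 2.68% of all tested genes, so short lists may hold none at that share. TOP2A, the topoisomerase II of dividing cells, had 9.68, 11.83 and 12.03 in ETP and 11.07, 11.57 and 11.93 in ETP_DMSO. The groups overlapped, and the change was -0.21 ± 0.37, or 0.12 ± 0.24 without the library labelled ETP replicate 2, in which TOP2A was 9.68. TOP2B, the isoform of resting cells, had 9.59, 10.35 and 10.42 against 10.24, 10.34 and 10.49 and a change of -0.0099 ± 0.068 without that library. TOP1 had a change of -0.034 ± 0.1, TDP2, which frees topoisomerase II from DNA ends, -0.13 ± 0.079, and TDP1 -0.36 ± 0.11 (adjusted p = 0.0909). Among the genes of etoposide export and metabolism 9 were tested, none was called and 3 had an unadjusted p under 0.05. The exporter gene ABCG2 was at 3.45, 4.87 and 5.17 in ETP and 5.005, 5.60 and 5.91 in the control, with a change of -0.85 ± 0.26 (adjusted p = 0.0815). It was called lower without the library, at -0.60 ± 0.15, and, with the library kept, in 1 fit of all groups, with array weights and with the repeat arrays kept apart.

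Genes of double-strand break repair and the checkpoint were not called in the main fit either. With 2.68% of all tested genes called, short lists may hold no call at that share. The counts of limma calls were 0 of 18 for end joining, 0 of 26 for recombination and the Fanconi pathway, and 0 of 21 for the checkpoint, and 5, 5 and 4 members had an unadjusted p under 0.05. Their medians were -0.073, -0.21 and -0.21. The change was negative in 12, 23 and 16 members, and in 5674 of all 11496 tested genes. With the replicate block and without the number-2 libraries, 1, 4 and 1 members were called lower. For recombination, 1 was called lower with array weights, without ETP replicate 1 and without ETP_DMSO replicate 2. WEE1, the kinase that holds CDK1 in check, had -0.46 ± 0.091 with an adjusted p of 0.0125, under the fold minimum. UBE2T, the ubiquitin enzyme of the Fanconi pathway, had -0.54 ± 0.14 (adjusted p = 0.0468), also under it. LIG4, the ligase of end joining, had 0.25 ± 0.078 and PARP1 -0.32 ± 0.11, and neither passed.

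Of all tested genes 2.06% were called higher and 0.618% lower, or 2.66% and 1.3% without the library labelled ETP replicate 2. A single call in a short list is not read as a result about that list. Of 25 tested BCL-2 and caspase genes 1 was called, BCL2L1, the survival protein BCL-XL, which rose by 0.65 ± 0.14. It was at 0.57 ± 0.12, under the fold minimum, without the library labelled ETP replicate 2. The call was also lost without ETP_DMSO replicate 3 and when the probe sets of each gene were averaged. Without the library labelled ETP replicate 2 CASP1 (0.77 ± 0.18) and BIK (0.79 ± 0.19) were called higher and BCL2A1 (-0.92 ± 0.20) and BCL2 (-0.77 ± 0.12) lower. Among 12 tested CDK inhibitors and partners CDKN2D, which encodes p19, fell, with -0.64 ± 0.14, a call lost without ETP replicate 1 or ETP_DMSO replicate 6. Of 23 tested interferon-response genes TRIM22, an antiviral ubiquitin ligase that is also a p53 target, rose by 0.92 ± 0.22, and the median was 0.21; without the library it was 0.32 and STING1, the sensor adaptor of cytosolic DNA, was called too, at 0.70 ± 0.17. TRIM22 had 10.37, 10.52 and 10.53 in the 5 other ETP libraries, above the control at 8.90, 9.42 and 9.53, and 9.12 in that library. The adjusted p of TRIM22 was 0.0301 with all samples, and the call was lost when ETP replicate 1, 3, 4, 5 or 6 or ETP_DMSO replicate 1, 4, 5 or 6 was left out. ISG15 and IFIT3 had 0.36 ± 0.085 and 0.50 ± 0.12 and were under the fold minimum.

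No member was called among 23 inflammatory, 17 immediate early, 6 senescence, 10 heat shock, 13 endoplasmic reticulum stress, 6 metallothionein, 11 cholesterol, 13 hypoxia or 5 AHR genes tested with limma. Unadjusted p-values under 0.05 were seen in 3, 2, 2, 1, 3, 1, 2, 1 and 2 of them, in that order. Of all tested genes 2.68% were called, so lists this short may hold no call at that share. Without the library labelled ETP replicate 2, MYC fell by 0.98 ± 0.099 (adjusted p = 6.64e-05), FOSL1 by 0.59 ± 0.16, UPP1, the uridine phosphorylase on the senescence list, by 0.75 ± 0.17 and the chemokine gene CXCL8 by 0.94 ± 0.24. MYC had 7.77, 7.90 and 7.94 in those 5 libraries, all under the control at 8.59, 8.86 and 9.15, and 9.13 in the library left out. CXCL8 was at 11.46 in that library, where the other ETP samples had 7.72, 8.09 and 9.002. With all samples a second probe set of MYC gave 0.11, where the brighter one gave -0.77.

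Further genes were called without the library labelled ETP replicate 2 and not with it in the same test. FAM111B, a protease of replicating cells, was at 6.81 in that library and 3.23, 4.07 and 4.45 in the other 5, against 4.63, 6.50 and 7.74 in ETP_DMSO, and its change of -1.85 ± 0.61 (adjusted p = 0.104) became -2.32 ± 0.47 (adjusted p = 0.00758). TMT1A, a thiol methyltransferase, was at 3.14 against 6.07, 6.83 and 7.46 and changed by 2.15 ± 0.28 without it, and PLAC8 by 1.77 ± 0.17. With the library kept, all 3 were also called in 1 fit of all groups and with array weights. With all samples the probe sets of TMT1A ranged from 0.036 to 1.54. The largest changes among the lost genes were those of PID1 (0.73 ± 0.18, then 0.56 ± 0.12), CITED2 (0.68 ± 0.16, then 0.55 ± 0.11) and TWIST2 (-0.68 ± 0.14, then -0.55 ± 0.084). With all samples a dimmer probe set gave 0.11 for PID1 and 0.13 for TWIST2. INPP1, ADGRA2 and PPP1R14C went from 0.68 to values between 0.51 and 0.58.

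The ETP change was set beside those of other compounds that damage DNA, each against its own control. Neocarzinostatin (NCS, 10 ng/ml) breaks DNA without topoisomerase II, and mitomycin C (MMC, 0.1 µM) crosslinks it. Both were compared with the control labelled DMSO_pooled, whose arrays are not those of ETP_DMSO; which samples were pooled is not in the labels. MMC and H2O2 had 5 samples each, and NCS, ENU, MMS, QUE and DMSO_pooled had 6 each. Doses differ by design, so sizes cannot be read as potencies. Across 11496 genes the ETP change had r = 0.76 with that of hydrogen peroxide (H2O2, 100 µM), 0.73 with NCS and 0.64 with MMC, and 0.77, 0.79 and 0.70 without the library labelled ETP replicate 2. With the alkylating agents ENU (2 mM) and MMS (200 µM) it had r = 0.49 and 0.17, and 0.38 and 0.030 without that library. Of the 237 genes called higher with ETP 235 had a positive change with NCS and 233 with MMC, and of the 71 called lower 71 and 67 had a negative one. These genes were chosen on the ETP value, and the share of all tested genes with a like sign is not given. The sign counts therefore have no background to be read against. NCS had 281 calls (2.44%), and 132 genes were called the same way with ETP and NCS, 42.9% of the ETP list and 47.0% of the NCS list, with none called in opposite directions. MMC had 19 calls (0.165%), 17 of them shared, 89.5% of the MMC list and 5.52% of the ETP list. The median change of the genes called higher with ETP, which were chosen on the ETP value, was 0.83 with ETP, 0.58 with NCS and 0.35 with MMC.

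The difference between compounds was tested in 1 fit of all 17 groups, as ETP minus its control less NCS or MMC minus its control. Against NCS 2 genes differed (0.0174%), MEGF6 and CEACAM1, both higher with ETP. MEGF6 had a change of 2.19 ± 0.30 with ETP and 0.56 ± 0.12 with NCS, and the difference was 1.63 ± 0.25 (adjusted p = 4.17e-05). CEACAM1, an adhesion molecule not well above background in ETP_DMSO, had 1.61 ± 0.40 and 0.15 ± 0.21, a difference of 1.45 ± 0.31 (adjusted p = 0.0456), with an adjusted p of 0.128 without the library labelled ETP replicate 2, which had its highest value at 6.30. Without that library 3 genes differed, MEGF6, TMT1A (1.57 ± 0.30) and NEURL1B (1.49 ± 0.30). When only the 4 groups of the contrast were fitted none differed, with an unadjusted p under 0.05 in 389 genes, so the calls against NCS rest on the spread shared over the series.

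Against MMC 32 genes differed (0.278%), 31 higher with ETP (0.27%) and 1 lower (0.0087%). TREM2 differed by 2.88 ± 0.50 (adjusted p = 1.92e-04), with 3.85 ± 0.25 under ETP and 0.97 ± 0.40 under MMC; its control was under 4 in the ETP set, so the difference is that of fitted values. AKR1B10 differed by 2.23 ± 0.39, with 0.21 ± 0.45 under MMC, SULF2 by 1.92 ± 0.30, with 0.24 ± 0.23, MEGF6 by 1.72 ± 0.25 and NECTIN4 by 1.55 ± 0.33, with 1.09 ± 0.20. ABCG2 was the one gene lower with ETP than with MMC, by -0.92 ± 0.23, and its adjusted p of 0.0451 became 0.174 without the library labelled ETP replicate 2. Fitted on the 4 groups alone 9 genes differed, TREM2 and SULF2 among them (adjusted p = 0.0160 for each), while AKR1B10 (0.140), MEGF6 (0.0555), NECTIN4 (0.103) and ABCG2 (0.618) did not pass. With a replicate block in each set 24 differed, and of these 6 genes only SULF2 passed (adjusted p = 0.00702), with 0.0501 for TREM2 and AKR1B10, 0.0692 for NECTIN4, 0.110 for MEGF6 and 0.204 for ABCG2. A filter at a mean of 6 gave 17. CDKN1A changed by 1.05 ± 0.11 with NCS and 0.70 ± 0.08 with MMC, and MDM2 by 0.92 ± 0.11 and 0.67 ± 0.13; neither gene was among those whose difference from ETP passed.

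**Figure D5:**
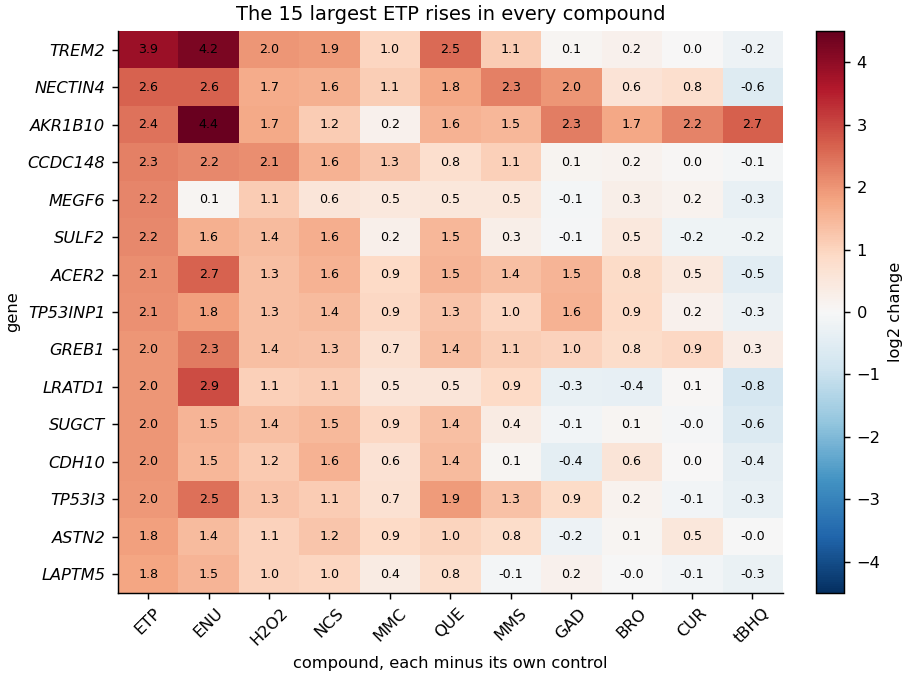
Change of the 15 genes with the largest ETP rises (rows) under each of 11 compounds (columns, log2, each minus its own control), with the value printed in each cell; the genes were chosen on the ETP column. Most of the genes are also higher with ENU, H2O2, NCS and QUE, while MEGF6 stands at 2.2 with ETP and at most 1.1 with the others, and AKR1B10 is high also with GAD, CUR and tBHQ. The ETP and QUE columns keep the number-2 libraries that went against their labels. Across all tested genes the ETP and QUE changes had r = 0.57 with these libraries and 0.14 without them.

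Quercetin (30 µM), a flavonoid that can act on topoisomerase II, was compared in the same way, but this contrast holds both libraries that went against their labels. With all libraries 583 genes (5.07%) differed between the ETP and QUE changes, 317 higher (2.76%) and 266 lower (2.31%) with ETP. Fitted on the 4 groups alone, or with a replicate block in each set, none passed with limma, and 1871 and 2627 genes had an unadjusted p under 0.05. Leaving out both number-2 libraries, ETP and QUE, the count was 2308 (20.1%), 1248 higher (10.9%) and 1060 lower (9.22%) with ETP. The controls of ETP and QUE with the same number deviated from their means together (r from 0.33 to 0.86), so they are not shown to be independent, as the test takes them to be. SLC7A11 is given as an example, with a difference of -2.17 ± 0.49 with all libraries (adjusted p = 0.00375, or 0.270 in the 4 groups alone and 0.156 with the block) and -3.15 ± 0.39 without the pair (adjusted p = 1.95e-10).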

How the data were processed

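Total RNA was hybridised to Affymetrix arrays, and per the submitters' processing notes Partek and GCRMA were used, with no version given. The deposited table holds log2 values, which the authors normalized before deposit; the array sets appear to have been normalized apart, so changes were taken only within a set. Groups come from the sample titles. Each gene was read by its brightest probe set on average across the series, and kept where a group mean was at least 4. ETP was compared with ETP_DMSO by limma 3.58.1 in R 4.3.3 (lmFit, eBayes), fitted on the 12 samples, with Benjamini-Hochberg adjustment over 11496 genes. Arrays 2 and 2-2 of ETP_DMSO were averaged: their difference had an SD of 0.154, where the next closest pair had 0.242. A fold from a group under 4 is given as "at least", against the higher of 4 and the group's own mean. Differences between compounds were tested in 1 limma fit of all 17 groups.

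The members and lists were chosen with earlier results of these data known. The genes named were, by rule, the 15 largest rises and falls without overlap, the top called members of each list (up to 4) or its smallest p-values, a panel, the largest differences between compounds, and the 6 largest changes gained or lost without ETP replicate 2. Other list members named, and PURPL, MCC, ACTA2, were chosen after their values were seen. The fit takes the samples as unpaired, and a replicate block is among the alternatives. Motifs were searched in RefSeq promoter windows of GRCh38.p14. The number of arrays limits the precision.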

Additional observations from a re-analysis of the deposited data

Results flagged for a closer look

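A sample was set apart where its gap to the nearest of the other 5 samples of its group was a large share of the group's range (Dixon's 95% value for 6 samples). Chance sets about 1 in 20 groups apart. Among the genes named, 31 of 214 groups met this limit, 21 of them in the library labelled ETP replicate 2. Some of these genes were named for a call gained or lost without that library, and without such genes it was 23 of 190 groups, 14 in that library. The other genes were also named on these data, so neither count can be read against chance. In that library the low log2 signals were KIAA1549L at 6.54, ABCG2 at 3.45, TRIM22 at 9.12, DHCR7 at 6.05, TOP2B at 9.59, CCNB1 at 7.84, H2BC21 at 5.54, TMT1A at 3.14 and PLAC8 at 4.61. The high ones were SPATA18 at 6.92, WEE1 at 9.15, MYC at 9.13, FAM111B at 6.81, SLC1A4 at 7.70 and CITED2 at 9.24. RELB at 6.28, PDIA4 at 11.2, MT2A at 12.96, E2F7 at 11.2, INPP1 at 9.04 and ADGRA2 at 6.10 stood apart there too.

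In other libraries NECTIN4 was low at 6.88, AKR1B10 at 5.49 and ACER2 at 5.42 in ETP replicate 3, PHLDA3 was low at 6.85 in ETP replicate 4, and LOXL1-AS1 was high at 7.45 in ETP replicate 1. Among the controls FUCA1 was low at 7.67 in replicate 1, WEE1 stood at 9.03 in replicate 2, and NFKB1 at 7.25, INSIG1 at 9.40 and SLC1A4 at 4.85 in replicate 3. Of 58 groups of list means 6 met the same limit: histones 8.46, ATF4 9.13, interferon 6.24 and immediate early genes 9.80 in the library labelled ETP replicate 2, metallothioneins 10.3 in ETP_DMSO replicate 3 and AHR genes 7.37 in ETP replicate 3.

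The ETP change differed from that of another compound in 2 genes for NCS, 32 for MMC and 583 for QUE. Against MMC the named differences (log2, ETP less MMC) were TREM2 2.88, AKR1B10 2.23, SULF2 1.92, MEGF6 1.72, NECTIN4 1.55, CEACAM1 1.41 and ABCG2 -0.92. The limma adjusted p of CEACAM1 against MMC was 0.0147, and 0.0559 without the library labelled ETP replicate 2. It was 0.535 in the 4 groups alone and 0.243 with a replicate block in each set. Against NCS they were MEGF6 1.63 and CEACAM1 1.45. Against QUE, with the libraries that went against their labels kept in, they were CLIC3 2.54, TMT1A 2.21, RAB26 2.21, GAS6-AS1 2.00, TLCD1 1.95, HSPA4L 1.92, ESM1 -3.10, CXCL8 -2.61, HSD17B2 -2.38, SLC7A11 -2.17, BCL2A1 -2.06 and NMRAL2P -1.99.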

How the results depend on the processing

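The 308 calls of ETP against ETP_DMSO (237 higher, 71 lower) became 586 (379 and 207) with array weights, which gave the library labelled ETP replicate 2 a weight of 0.106, and 584 (396 and 188) with no fold minimum. One fit of all groups gave 137 lower. Leaving out 1 library at a time gave totals from 219 (without ETP replicate 6) to 455 (without ETP replicate 2), higher calls from 173 to 306 and lower calls from 42 (without ETP replicate 5) to 149 (without ETP replicate 2). Averaging the probe sets of each gene gave 215, and no filter, a filter at 6, other scalings and the choice of repeat array gave 237 to 323. Causes were not tested.

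With the replicate number as a block, the count was 369 (265 higher, 104 lower), and 597 (376 and 221) with the block and without the number-2 libraries. In 5 of 6 pairs same-numbered ETP and ETP_DMSO samples deviated together (r from 0.24 to 0.65) and matched their own number best, a hint that the numbers mark something shared. The number-2 pair, with the library that went against its label, had -0.0022. The rule used here takes numbers as pairs only where every pair is over 0.1, so the values given are unpaired. The block moved the genes called lower from 0 to 5 in the ATF4 list, 2 to 4 in G2 and mitosis and 0 to 1 in the checkpoint, senescence and immediate early lists, and those called higher from 1 to 2 in the BCL-2 and interferon lists and from 0 to 2 among inflammatory genes.

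The differences between compounds depended most on the fit. Against NCS the 2 genes became 0 with only the 4 groups of the contrast (389 with an unadjusted limma p under 0.05), with a filter at 6 (373) and with a replicate block in each set (1030). Against MMC the 32 became 9, 17 and 24 in these settings. Against QUE the 583 became 1576 without the library labelled ETP replicate 2, 0 in the 4 groups alone (1871 unadjusted) and with the block (2627), and, chosen after seeing the data, 2308 and 2306 (4 groups) without the libraries labelled ETP 2 and QUE 2.

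Of 107 genes named, 63 were called, 41 of these in each of the 26 alternatives, and none of the called genes reversed. Averaging the probe sets of each gene ended the call of 15 of the 63, the largest loss. Leaving out ETP_DMSO replicate 6 ended 11. TOP1 turned to 0.039 with array weights and 0.026 without ETP replicate 3, and ranged from -0.090 to 0.026 as single libraries were left out. TOP2A turned to 0.22 with array weights, 0.073 with the block without the number-2 libraries and 0.12 without ETP replicate 2, with a range from -0.35 to 0.12 as single libraries were left out.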

Other observations

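Long genes were called lower more often than shorter ones. Of 413 tested genes whose RefSeq span is over 300 kb, 9 were called lower (2.18%), against 0.454% to 0.651% in 4 classes of shorter genes, over 11484 genes with a span. Without the library labelled ETP replicate 2 the shares were 2.42% and 1.14% to 1.39%. The 9 were BNC2, CREB5, NAV3, NFIB, NTNG1, POLA1, SCFD2, STAG1 and SYNE2. The median change of the class was -0.037 with the library and 0.0032 without it. The share called higher, 2.18%, was close to that of the other classes, at 1.92% to 2.25%. The difference in shares was not tested.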
